A study of Mus musculus with 8 samples.

Results

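Described here are 10 genes of fatty acid oxidation and its control, read in hearts of mouse embryos (Mus musculus) at embryonic day 11.5. The sample titles name the heart and the series text dissected ventricles, while the labels' extraction text speaks of cortical neurons. The 10 genes are Cd36, Fabp3, Cpt1a, Cpt1b, Cpt2, Acadvl, Acadm, Hadha, Ppara and Ppargc1a. They were chosen by symbol, as the rows on primary chromosomes of a table of 52778 gene rows, and all 10 were found, each on 1 such row. The comparison asks whether these genes, which mark how far heart muscle has matured in its fuel use, stand at a different level when cardiomyocytes lose Rps19bp1.

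RNA sequencing was carried out on 4 conditional knockout libraries (cKO) and 4 control libraries, and all 8 carry the same batch label. The series text gives the cKO genotype as Rps19bp1 fl/fl; Xmlc2-Cre +/-, in which the Cre line, named for a myosin light chain gene, is described as acting in cardiomyocytes, so the other cells of the ventricle are not targeted. The control embryos are named only as controls, without saying whether they carry the floxed alleles or Cre, and the genotype field reads C57BL/6 WT for every library, cKO included. The text calls the libraries biological replicates and does not say whether hearts were pooled, and no drug or other agent was given to either group.

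Heart muscle takes up long-chain fatty acids through the scavenger receptor Cd36 and moves them through the cytosol on the binding protein Fabp3. After activation to acyl-CoA they cross into mitochondria on carnitine, loaded by Cpt1 on the outer membrane and released by Cpt2 on the inner membrane, and are then shortened in repeated cycles by acyl-CoA dehydrogenases such as Acadvl and Acadm and by the trifunctional protein, of which Hadha is a subunit. Ppara is a nuclear receptor that binds fatty acids and switches on genes of this pathway, and Ppargc1a is its coactivator. The embryonic heart lives largely on glucose and lactate, and fatty acid oxidation becomes its main fuel supply only after birth.

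Values are TPM, which take account of transcript length and add up to an equal sum in every library, so that levels of different genes can be compared. Rps19bp1 itself stood at 14.96 ± 3.14 TPM in cKO and 39.9 ± 3.93 TPM in control (SD, n = 4), and the groups did not overlap. Summed cardiomyocyte markers (20 genes, 4 with a positive fitted change, 2 called lower and 0 higher) lay between 59177 and 62276 TPM in cKO and between 59621 and 64668 TPM in control. All 8 epicardial markers had a positive fitted change, with 4 called higher and a sum of 343 to 441 TPM in cKO against 284 to 317 TPM in control. Mesenchymal markers also summed higher, at 901 to 1100.1 TPM in cKO against 686 to 833 TPM in control (4 called higher and 1 lower of 8). Of all tested rows, 2.16% were called higher and 4.23% lower. Endothelial markers (0 of 10 called, 9 with a positive fitted change) summed to 808 to 910.1 TPM in cKO and 759 to 804 TPM in control. Summed erythroid markers ranged from 1785 to 3847 TPM in cKO and from 2013 to 7318 TPM in control. Of the 9 erythroid markers 0 were called, and 0 had a positive fitted change. Macrophage markers summed to 12.2 to 37.2 TPM in cKO and 12.2 to 25.9 TPM in control. Of the 6 macrophage markers tested 0 were called, and 6 had a positive fitted change. Hepatocyte markers summed to 1.03 to 15.1 TPM in cKO and 0.632 to 1.06 TPM in control (0 called of 1 tested), and adipocyte markers to at most 0.374 TPM in cKO and 0.282 TPM in control, with Fgb and Cidec at 0 in all 8 libraries. Mitochondrially encoded RNA took 13.2% to 16.2% of TPM in cKO and 11.4% to 12.2% in control of a total that is fixed by the unit. The part of this in the values below was not tested beyond the rescaled fits, given for the members and for some genes of the wider list.

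Of the 10 genes, 0 rose or fell in cKO past the threshold of an adjusted p under 0.05 in limma's test across 15541 rows, of which 6.40% passed. At an unadjusted p under 0.05 there were 2 of 10, Cpt2 and Ppara, against 23.7% of all rows. All 10 entered the test, which needed a mean of at least 1 TPM over the 8 libraries. Fitted changes, given as log2(TPM + 1) of cKO minus control, ran from -0.33 for Ppara to 0.15 for Cd36, 6 negative and 4 positive. Their median was -0.02, and that of all tested rows was -0.02. The 95% intervals of the 8 genes other than Cpt2 and Ppara included 0, and a p that misses the threshold does not show that the levels are the same. In tissue of several cell types, fewer cells of a type and less RNA per cell cannot be told apart.

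**Figure D1:**
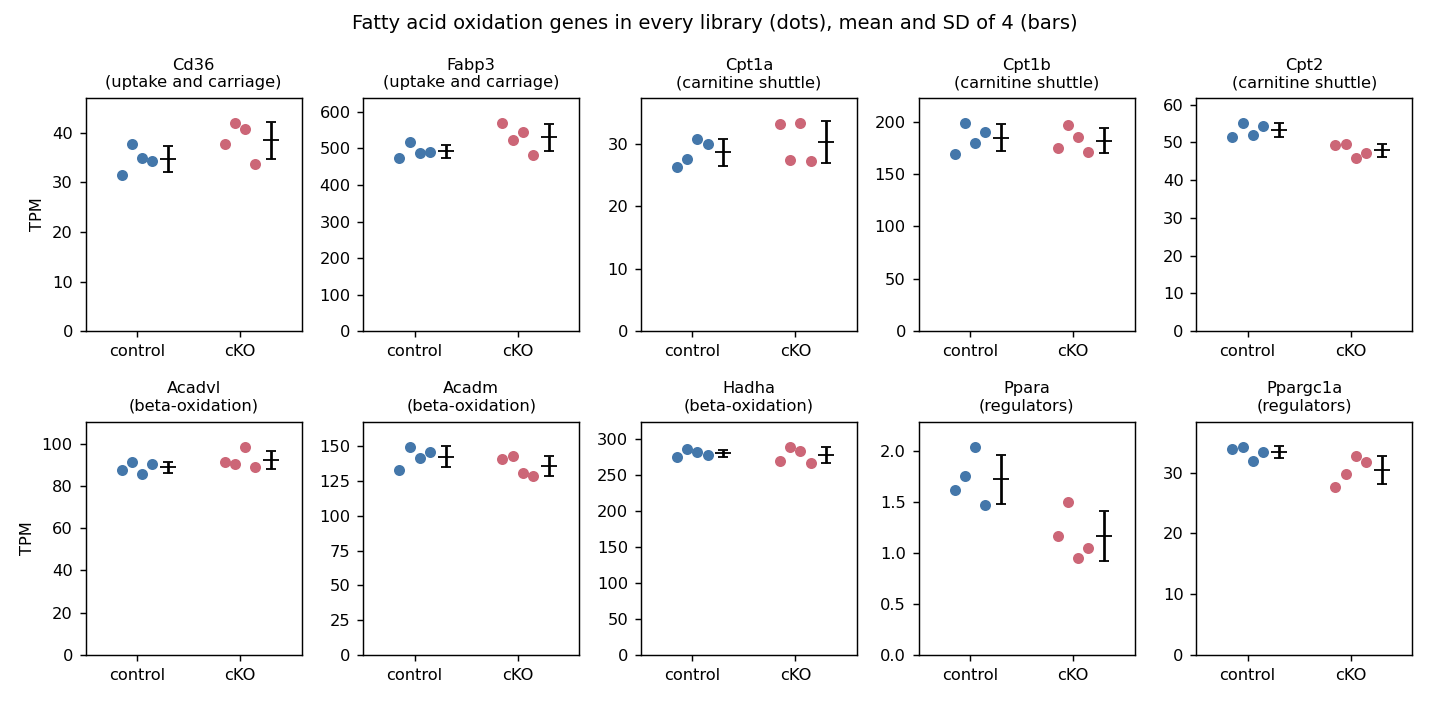
TPM of the 10 genes in every library (dots), with the mean and SD of 4 libraries beside them, each panel on its own axis from 0. The groups overlap in every panel but that of Cpt2, where the cKO libraries sit between 45.9 and 49.6 TPM and the control libraries between 51.4 and 55.1 TPM.

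The 10 genes spanned a wide range of levels, and the order of their means was the same in both groups. In control libraries it ran from Fabp3 (492 TPM) through Hadha, Cpt1b, Acadm, Acadvl, Cpt2, Cd36, Ppargc1a and Cpt1a to Ppara (1.72 TPM). Each gene was separated from the next without overlap between libraries, except Cd36 and Ppargc1a in control and Ppargc1a and Cpt1a in cKO. Fabp3 stood above 98.4% of all tested rows, Hadha above 97.01% and Cpt1b above 94.9%, while Ppara stood above 6.15%. The coefficient of variation between replicates ran from 1.80% (Hadha in control) to 20.7% (Ppara in cKO). For Ppara in control it was 14.1%. The 10 levels together summed to 1396, 1395, 1398 and 1277 TPM in cKO libraries 1 to 4 and to 1283, 1401, 1329 and 1349 TPM in control libraries 1 to 4, which overlap.

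Among the uptake genes, Cd36 and Fabp3 had positive fitted changes that did not pass the test. Cd36 (chr5:17781690-17888959, minus strand, GRCm38) is a membrane receptor that takes up fatty acids in muscle and in capillary endothelium. It stood at 37.6, 41.9, 40.8 and 33.6 TPM in cKO libraries 1 to 4 and at 31.4, 37.7, 34.96 and 34.3 TPM in control libraries 1 to 4. Libraries 2 and 3 of cKO lay above every control library, and cKO library 4 lay inside the control range. The means were 38.5 ± 3.74 and 34.6 ± 2.61 TPM (SD, n = 4), and limma gave an adjusted p = 0.289 for a log2 change of 0.15 (SE 0.0785, 95% interval -0.03 to 0.32). Endothelial markers also summed slightly higher in cKO, as given above, and their part in the Cd36 value was not tested.

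Fabp3 (chr4:130308738-130315463, plus strand), the fatty acid binding protein of heart and skeletal muscle, was the most abundant of the 10 genes. It stood at 569.9, 525, 546 and 482 TPM in cKO and at 473, 518, 488 and 489.9 TPM in control. Libraries 1 to 3 of cKO were above all controls, and library 4 was within them. The log2 change was 0.11 (SE 0.0589, interval -0.03 to 0.24, limma adjusted p = 0.315). Its row overlaps Zcchc17 on the opposite strand (28.7 TPM in cKO and 31.8 TPM in control), and whether reads were assigned by strand is not given. Fabp3 and Acadvl each have a second row on an alternate scaffold, which is at 0 in all 8 libraries.

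The carnitine shuttle held the gene that came nearest to the threshold. Cpt2 (chr4:107903982-107923589, minus strand) frees acyl groups from carnitine inside the mitochondrion. It stood at 49.2, 49.6, 45.9 and 47.1 TPM in cKO libraries 1 to 4 and at 51.4, 55.1, 51.9 and 54.4 TPM in control libraries 1 to 4. Every cKO library was below every control library, a pattern found for 1 of these 10 genes and for 15.6% of all tested rows (10.3% lower and 5.33% higher in cKO). The means were 47.9 ± 1.75 and 53.2 ± 1.84 TPM (SD, n = 4), so cKO held 90.1% of the control level (log2 change -0.15, SE 0.0469, interval -0.25 to -0.04, limma adjusted p = 0.0925). The adjusted p of Cpt2 lay between 0.0812 and 0.409 under the 18 alternative settings, all of which kept the direction. The change was -0.09 when values were set relative to cardiomyocyte markers and -0.11 when mitochondrial and globin rows were removed.

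Cpt1 comes as separate genes for separate tissues. Cpt1b (chr15:89416405-89425862, minus strand) is the muscle form and Cpt1a (chr19:3322326-3385735, plus strand) the form of liver and of the fetal heart. Cpt1b stood at 175, 197, 185 and 171 TPM in cKO and at 169, 199, 180.1 and 191 TPM in control. The groups covered the same range (log2 change -0.02, SE 0.0634, interval -0.16 to 0.12, limma adjusted p = 0.878). Cpt1a stood at 33.1, 27.4, 33.3 and 27.3 TPM in cKO and at 26.2, 27.5, 30.7 and 29.9 TPM in control. The cKO libraries formed a high pair (1 and 3) and a low pair (2 and 4), the latter inside the control range (log2 change 0.08, SE 0.0831, interval -0.11 to 0.26, limma adjusted p = 0.633). The change of Cpt1a was 0.03 without cKO library 3 and 0.12 without cKO library 4. The hepatocyte markers given above had a higher upper end in cKO, and their part in the Cpt1a value was not tested. The muscle form was already the main one at this stage in both groups.

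The share of Cpt1b in the sum of Cpt1a and Cpt1b is free of any scaling between libraries. It was 84.1%, 87.8%, 84.8% and 86.2% in cKO and 86.6%, 87.8%, 85.4% and 86.4% in control. The means of 85.7% ± 1.64 and 86.6% ± 0.987 (SD, n = 4) differed by -0.85 percentage points, less than the spread between replicates (exact two-sided permutation p = 0.371, where 0.0286 is the smallest value 4 against 4 libraries allow). The difference was -0.31 points without cKO library 1 and -1.54 points without cKO library 2. Cpt1c (chr7:44958483-44974880, minus strand), a brain form that sits in the endoplasmic reticulum and has little transferase activity, behaved otherwise. It stood at 19.1, 16.3, 19.4 and 15.8 TPM in cKO and at 9.51, 8.55, 10.4 and 11.3 TPM in control, with all cKO libraries above all controls. Its rise, to 178% of the control mean, had a log2 change of 0.77 (SE 0.0956, interval 0.56 to 0.99, limma adjusted p = 0.00279). Cpt1c thus took 6.79% to 8.42% of the summed Cpt1 TPM in cKO and 3.64% to 4.88% in control, a share chosen after the values were seen. Summed neuronal markers were 10.3 to 14.1 TPM in cKO and 5.47 to 12.3 TPM in control (0 called of 1 tested, Neurod6 at 0), and their part in the Cpt1c value was not tested. With Cpt1c in the denominator, the Cpt1b share was 79.1% ± 2.15 in cKO and 82.7% ± 1.37 in control (SD, n = 4, exact two-sided permutation p = 0.0571).

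**Figure D2:**
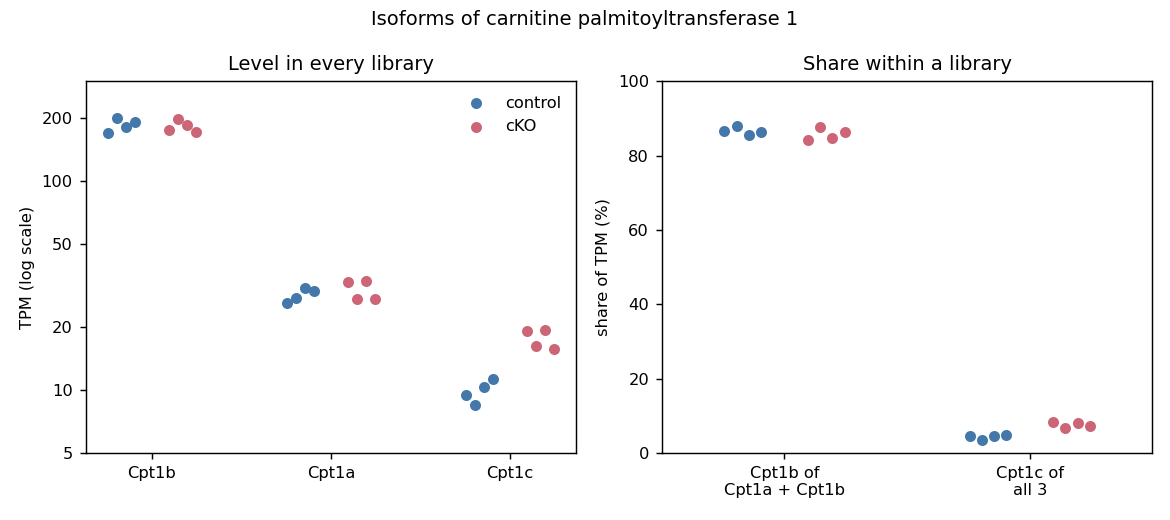
Left, TPM of Cpt1b, Cpt1a and Cpt1c in every library on a log axis; right, the share of Cpt1b in Cpt1a plus Cpt1b and of Cpt1c in all 3, in percent. The groups overlap for Cpt1b, Cpt1a and the Cpt1b share, and are apart for Cpt1c, at 15.8 to 19.4 TPM in cKO and 8.55 to 11.3 TPM in control.

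All 3 enzymes of the oxidation cycle overlapped between groups and had fitted changes near 0. Acadvl (chr11:70010183-70015428, minus strand), which opens the cycle on very long chains, stood at 91.3, 90.3, 98.6 and 88.7 TPM in cKO and at 87.5, 91.4, 85.8 and 90.5 TPM in control. Library 3 of cKO was the 1 value above the control range, and the log2 change was 0.05 (SE 0.0472, interval -0.05 to 0.16, limma adjusted p = 0.545). Acadm (chr3:153922353-153944643, minus strand), the medium-chain enzyme, stood at 141, 143, 131 and 128 TPM in cKO and at 132, 149.6, 141 and 146 TPM in control. Libraries 3 and 4 of cKO lay just below the controls (log2 change -0.07, SE 0.0548, interval -0.19 to 0.05, limma adjusted p = 0.491).

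Hadha (chr5:30119423-30154980, minus strand) encodes the alpha subunit of the trifunctional protein, which carries out the later steps on long chains. It stood at 270.3, 289.98, 284 and 267 TPM in cKO and at 275, 287, 282 and 278 TPM in control. Libraries 1 and 4 of cKO were below the control range, library 2 was above it and library 3 was inside it, so cKO spread more widely around nearly the same mean (log2 change -0.01, SE 0.0440, interval -0.11 to 0.08, limma adjusted p = 0.874). Hadhb, the beta subunit, is read in the opposite direction, with 272 bases between the starts. The 250 of them next to the Hadha start are shown because both subunits are read outward from this stretch. The sequence comes from RefSeq (GRCm38.p6, chr5:30154981-30155230, on the strand of Hadha), 5′ to 3′ up to the base before the Hadha start, with the reverse complement of GGGCGG, a GC box, in capitals.
Hadha upstream: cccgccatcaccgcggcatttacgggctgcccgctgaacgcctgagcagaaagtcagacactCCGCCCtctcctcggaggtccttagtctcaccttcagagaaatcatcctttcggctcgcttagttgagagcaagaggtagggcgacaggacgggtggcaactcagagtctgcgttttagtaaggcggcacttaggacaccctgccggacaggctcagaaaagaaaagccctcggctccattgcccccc
GGGCGG, searched on both strands, is found in 35.7% of all 32851 RefSeq windows (250 bases before to 50 after a start) and in those of 5 of the 9 members with such a window. The TPM ratio of Hadha to Hadhb was 1.52, 1.55, 1.78 and 1.68 in cKO and 1.59, 1.53, 1.62 and 1.57 in control. Libraries 3 and 4 of cKO were above the control range and library 1 was below it, and the means of 1.63 ± 0.118 and 1.58 ± 0.0416 (SD, n = 4) did not differ beyond that spread (exact two-sided permutation p = 0.457).

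**Figure D3:**
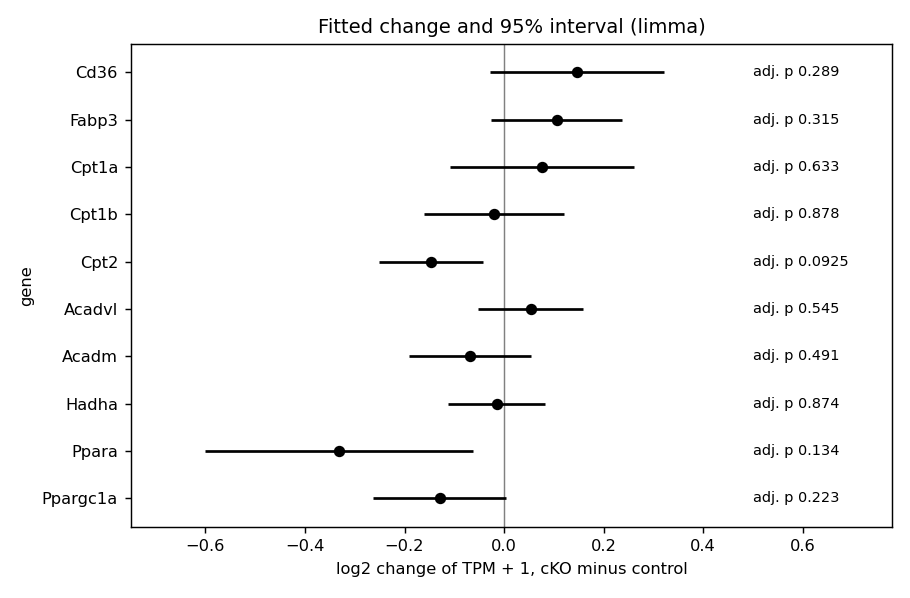
Fitted log2 change of TPM + 1 (cKO minus control, dots) with its 95% interval (lines) for the 10 genes, and limma's adjusted p at the right. Only the intervals of Cpt2 and Ppara leave out 0, and no adjusted p is under 0.05.

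Both regulators had negative fitted changes. Ppara (chr15:85734910-85806851, plus strand), the fatty acid receptor, was barely present, at 1.17, 1.5, 0.946 and 1.05 TPM in cKO and 1.61, 1.75, 2.04 and 1.47 TPM in control. Libraries 1, 3 and 4 of cKO were below all controls, and cKO library 2 was just above the lowest control. The means were 1.16 ± 0.241 and 1.72 ± 0.243 TPM (SD, n = 4), so cKO held 67.7% of the control level. The log2 change of -0.33 (SE 0.121, interval -0.60 to -0.06, limma adjusted p = 0.134) understates this ratio because the pseudocount of 1 is near the level itself. With a pseudocount of 0.1 the change of Ppara was -0.53, and its adjusted p lay between 0.0822 and 0.281 over the 17 alternatives that could give a value. The number of reads behind so low a value cannot be read from TPM.

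Ppargc1a (chr5:51454249-52115853, minus strand) encodes PGC-1alpha, a coactivator that drives mitochondrial and fatty acid genes. It stood at 27.6, 29.8, 32.8 and 31.8 TPM in cKO and at 33.9, 34.3, 31.9 and 33.4 TPM in control. Only cKO library 3 reached into the control range. With means of 30.5 ± 2.28 and 33.4 ± 1.03 TPM (SD, n = 4), the limma adjusted p was 0.223 for a log2 change of -0.13 (SE 0.0599, interval -0.26 to 0.00). For Ppara, Ppargc1a, Cd36 and Cpt1a the start in the RefSeq window lies inside the gene row and not at its end, and a value per gene does not separate starts.

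Nuclear receptors of this pathway bind variants of the half-site AGGTCA. An exact search of both strands found it in 4 of the 9 windows of these genes and in 16.3% of all 32851 windows. The 4 matches are shown with their flanks, because Ppara and its partners act through such sites, on the strand of each gene with AGGTCA or its reverse complement in capitals (GRCm38.p6).
Acadm chr3:153944870-153944893: gTGACCTtcgggctccggtgacac
Acadvl chr11:70015493-70015532: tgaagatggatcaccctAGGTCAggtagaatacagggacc
Cd36 chr5:17836102-17836141: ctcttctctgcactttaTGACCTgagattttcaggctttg
Cpt1a chr19:3323190-3323229: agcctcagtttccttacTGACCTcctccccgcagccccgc
The matches begin 249, 87, 228 and 94 bases before the start. A direct repeat of AGGTCA with 1 base between the copies (0.0396% of all windows) and the extended half-site TCAAGGTCA (0.423% of all windows), which both contain AGGTCA, were in 0 of the 9 windows. The 4 genes with a match had fitted changes of -0.07 (Acadm), 0.05 (Acadvl), 0.15 (Cd36) and 0.08 (Cpt1a), none past the threshold. A match is a run of letters and not a bound site.

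A wider list of 78 other genes of fatty acid use was examined beside the 10, and some of its genes passed the threshold. Of the 74 genes tested, 9 had a limma adjusted p under 0.05, which is 12.2% against 6.40% of all rows, with 7 lower and 2 higher in cKO. The list was drawn up with earlier results of these data known. Its shares, and those of its roles below, therefore cannot show that these genes differ from other rows. Of all rows, 4.23% were called lower and 2.16% higher. The list had a median log2 change of -0.05, with 50 negative and 24 positive fitted changes, and 26 of the 74 had an unadjusted p under 0.05 (23.7% of all rows did). The split of 2 higher and 7 lower depended on scaling, and became 2 higher and 2 lower after quantile normalization, after removing mitochondrial and globin rows, and relative to cardiomyocyte markers. Of the 9 calls, those of Acsl3, Bdh1 and Cpt1c held under all 18 alternatives, and each of the other 6 was lost under at least 12 of them. Calls lower in cKO numbered 5 without cKO library 2, 3 without control library 4 and 2 without each of the other 6 libraries.

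**Figure D4:**
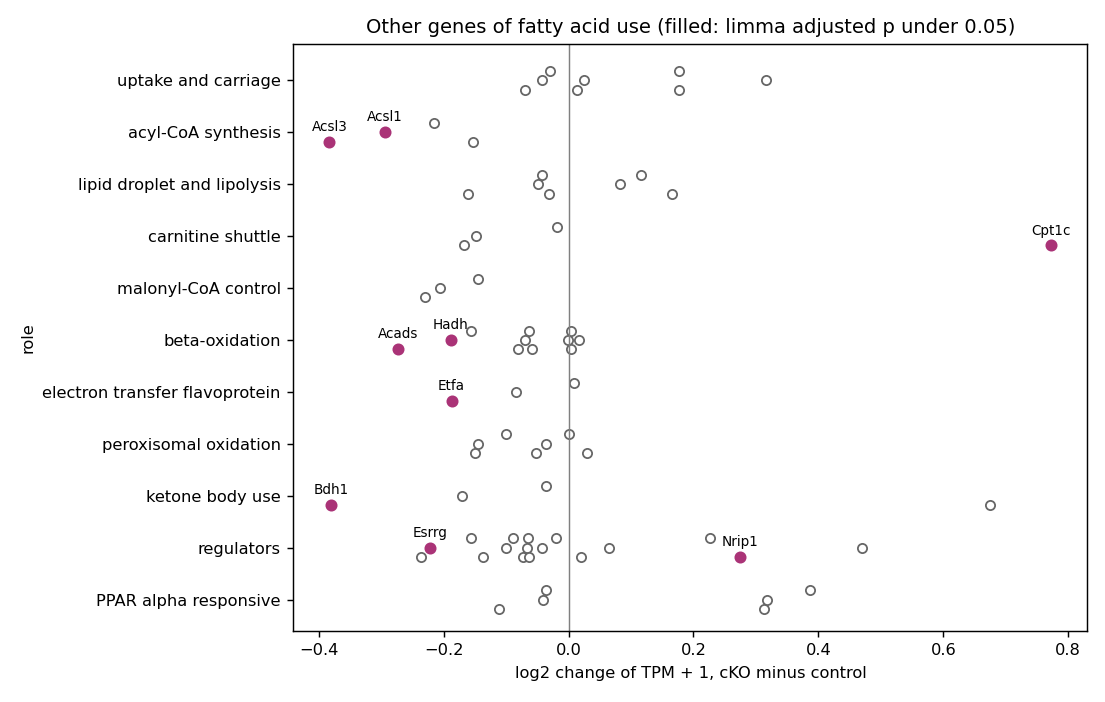
Fitted log2 change of TPM + 1 (cKO minus control) for the 74 tested genes of the wider list by role, with genes past an adjusted p of 0.05 filled and named. All 4 acyl-CoA synthetases and all 3 genes of malonyl-CoA control lie left of 0, and Cpt1c stands alone at 0.77.

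Acyl-CoA synthetases, which activate fatty acids before they reach the carnitine shuttle, had negative fitted changes in all 4 tested members, and 2 were called lower (50%, against 4.23% of all rows). Acsl3 (chr1:78657825-78707743), the form of the endoplasmic reticulum and lipid droplets, stood at 33.8, 40.7, 36.4 and 37.8 TPM in cKO and at 48.4, 49.9, 48.2 and 48.1 TPM in control. All cKO libraries were below all controls, at 76.4% of the control mean (log2 change -0.38, SE 0.0578, limma adjusted p = 0.00729). The Acsl3 row overlaps Utp14b on the same strand (4.91 TPM in cKO and 6.65 TPM in control), so part of its reads is uncertain. Acsl1 (chr8:46471037-46536051), the main form of the adult heart, fell by 0.29 on the log2 scale (limma adjusted p = 0.0354), with 20.03 ± 1.68 TPM in cKO and 24.8 ± 1.44 TPM in control (SD, n = 4). Without mitochondrial and globin rows the limma adjusted p of Acsl1 was 0.0537. Acsl5 (-0.22) and Acsl4 (-0.15) did not pass, with adjusted p of 0.0827 and 0.178.

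Within the mitochondrial cycle, Acads and Hadh were called lower among 11 genes of the list (18.2%, against 4.23% of all rows), and 0 were called higher. Acads (chr5:115110299-115119346), the short-chain dehydrogenase, had 90.04 ± 8.85 TPM in cKO and 109 ± 2.24 TPM in control (SD, n = 4; limma adjusted p = 0.0383, log2 change -0.27). Hadh (chr3:131233419-131272101), which acts on medium and short chains, had 171 ± 8.57 TPM in cKO and 195 ± 5.49 TPM in control (limma adjusted p = 0.048, log2 change -0.19). The long-chain dehydrogenase Acadl, the most abundant of these 11, had a log2 change of 0.00 (adjusted p = 0.981), and the difference between enzymes of long and short chains was not tested. Etfa (chr9:55454436-55512243), which takes electrons from all acyl-CoA dehydrogenases, fell to 189 ± 6.85 TPM in cKO against 215 ± 7.43 TPM in control (limma adjusted p = 0.0394, log2 change -0.19), while its partner Etfb had a change of -0.08 that did not pass (adjusted p = 0.348). The calls of Acads, Hadh and Etfa were lost without mitochondrial and globin rows (limma adjusted p = 0.0527, 0.0892 and 0.073). They were also lost relative to cardiomyocyte markers (0.12, 0.265 and 0.17).

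Among genes of ketone body use, Bdh1 (chr16:31422297-31458901), the mitochondrial beta-hydroxybutyrate dehydrogenase, stood at 9.74, 10.3, 9.15 and 10.1 TPM in cKO and at 12.5, 13.9, 12.4 and 13.8 TPM in control. The groups did not overlap, and Bdh1 fell to 75.03% of the control mean (log2 change -0.38, SE 0.0657, limma adjusted p = 0.0121). Oxct1, which commits ketone bodies to oxidation, had a change of -0.17 (adjusted p = 0.0708). Among 17 further regulators, Esrrg (chr1:187608510-188214885), an orphan receptor that works with PGC-1alpha, fell to 31.7 ± 1.56 TPM in cKO against 37.1 ± 1.62 TPM in control (SD, n = 4; limma adjusted p = 0.0394, log2 change -0.22). Nrip1 (chr16:76287403-76373827), a corepressor of such receptors, rose to 8.33 ± 0.187 TPM against 6.73 ± 0.554 TPM in control (limma adjusted p = 0.0476, log2 change 0.27). The corepressor Ncor1 had a change of -0.16 (adjusted p = 0.0996). Of the 17, 11.8% were called, against 6.40% of all rows. At an unadjusted p under 0.05 there were 5, with 3 higher and 2 lower in cKO (29.4%, against 23.7% of all rows). Rxrg (0.47, adjusted p = 0.0682, 1.68 and 0.928 TPM) and Esrrb (0.23, adjusted p = 0.17) did not pass, with all cKO libraries above all controls. Without mitochondrial and globin rows, limma adjusted p was 0.089 for Esrrg and 0.0391 for Nrip1. Epicardial and mesenchymal markers summed higher in cKO, as given above, and their part in the values of the genes that rose was not tested. Cardiomyocyte markers, of which 4 of 20 had a positive fitted change, had a median log2 change of -0.05, and their sums overlapped between groups. Their part in the values of the genes called lower was not tested beyond the fits relative to these markers.

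The other roles had 0 called genes, and their counts at an unadjusted p under 0.05 are to be read against 23.7% of all rows. Among genes that respond to Ppara (0 of 6 called), 2 had an unadjusted p under 0.05, Ucp2 and Acot1. Ucp2, a mitochondrial carrier and the most abundant of them, stood at 229, 190.1, 198 and 158 TPM in cKO and 141, 132, 149 and 167 TPM in control. Libraries 1 to 3 of cKO exceeded every control (log2 change 0.39, limma adjusted p = 0.0613). Acot1, an acyl-CoA thioesterase with close copies whose reads may be shared, had a change of 0.32 (adjusted p = 0.123). Malonyl-CoA, made by Acaca and Acacb and removed by Mlycd, blocks Cpt1. All 3 of these genes had negative fitted changes, 0 passed, and 2 had an unadjusted p under 0.05, Mlycd (-0.23, adjusted p = 0.0793) and Acaca (-0.21, adjusted p = 0.102).

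Of the peroxisomal genes (0 of 7 called), 1 had an unadjusted p under 0.05, Hsd17b4, also the most abundant (-0.15, adjusted p = 0.154). Of the lipid droplet and lipolysis genes (0 of 7 called), 1 did, Abhd5, a coactivator of triglyceride lipase, with all cKO libraries above all controls (0.17, adjusted p = 0.102). The most abundant gene of that role was the droplet coat gene Plin2 (0.12, adjusted p = 0.37). Of the uptake and carriage genes (0 of 8 called), 1 did, the fatty acid transporter Slc27a6, again with the groups apart (0.32, adjusted p = 0.162), and the most abundant was Fabp5 (-0.04, adjusted p = 0.753). Of the 4 carnitine genes of the wider list, 3 had an unadjusted p under 0.05. Beside Cpt1c these were the carnitine transporter Slc22a5, with all cKO libraries below all controls (-0.17, adjusted p = 0.141), and the most abundant of the 4, Crat (-0.15, adjusted p = 0.203).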

How the data were processed

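The deposited table holds 1 value per gene row and library in TPM, as the authors named it, scaled to the same total in each library. The submitters' processing notes name FastQC, Trim Galore 0.6.7, HISAT2 2.2.1, StringTie 2.2.1, featureCounts and DESeq2 and the build GRCm38, without saying which step made the table. Whether counting used strand is not given in the sources used here. The labels' extraction text speaks of cortical neurons and rRNA depletion, the series text of dissected ventricles and a stranded mRNA kit. TPM keeps no depth, so no counting error is given; replicate spread sets the precision. Start and end of all 88 rows used match RefSeq GRCm38.p6.

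Rows with a mean of at least 1 TPM were analysed as log2(TPM + 1) with limma 3.58.1 in R 4.3.3 (group as the only term, eBayes with trend, two-sided, Benjamini-Hochberg over 15541 rows, intervals at 95%). Called means an adjusted p under 0.05. Shares and ratios were compared by an exact permutation test over 70 assignments. The procedure was tested on simulated data with changes larger than those fitted for the 10 members. That test does not show whether changes of their size would be found. The members and lists were chosen with earlier results of these data known. Named genes are the 10 members, Rps19bp1, called genes of the wider list and the most abundant gene of each role. Hadhb, Acsl4, Acsl5, Acaca, Acacb, Acot1, Abhd5, Slc27a6, Slc22a5, Rxrg and Esrrb were added after their values were seen. Alternatives changed 1 choice at a time: pseudocount (0.1, 5), filter (none, mean of 5 TPM), scaling (quantile, without mitochondrial and globin rows, relative to cardiomyocyte markers), variance model (no trend, array weights), a replicate block, and each library left out. Figures were drawn with matplotlib 3.10.9.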

Additional observations from a re-analysis of the deposited data

Results flagged for a closer look

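In 2 of 60 groups of 4 libraries, 1 library stood far from the other 3 (chance flags about 1 in 20 groups). Acsl3 was 49.9 TPM in control library 2, while the other controls lay between 48.1 and 48.4 TPM. Hsd17b4 was 69.98 TPM in control library 3, while the other controls lay between 78.1 and 78.6 TPM. Among the 10 members, 0 groups were flagged.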

How the results depend on the processing

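The count of members called stayed at 0 in each direction under all 18 alternatives. The median change of the members was 0.0415 relative to cardiomyocyte markers, and lay between -0.05 and 0.01 when single libraries were left out. Directions turned for Cpt1b and Hadha, whose changes are near 0. Cpt1b was 0.0443 after quantile normalization, 0.0146 without mitochondrial and globin rows and 0.0385 relative to cardiomyocyte markers, and Hadha was 0.0218, 0.0206 and 0.0444 in the same order. Without mitochondrial and globin rows the changes were 0.182 for Cd36, 0.141 for Fabp3, 0.110 for Cpt1a and 0.0882 for Acadvl. In that fit they were -0.0337 for Acadm, -0.113 for Cpt2, -0.330 for Ppara and -0.0957 for Ppargc1a. Leaving out single libraries gave -0.0613 to 0.0155 for Cpt1b and -0.0356 to 0.00480 for Hadha. It kept the direction of the other 8 members, with 0.0210 to 0.0710 for Acadvl, -0.103 to -0.0432 for Acadm, 0.0700 to 0.151 for Fabp3 and -0.164 to -0.0849 for Ppargc1a.

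Of the wider list, 2 genes were called lower with no filter, after quantile normalization, without mitochondrial and globin rows, relative to cardiomyocyte markers and in eBayes without a trend. 1 gene was called higher with no filter and with array weights. Leaving out single libraries gave 2 to 5 called lower and 1 to 2 called higher. Over all rows, calls were 336 higher and 658 lower as deposited, 383 and 380 after quantile normalization, 388 and 396 without mitochondrial and globin rows, and 342 and 152 relative to cardiomyocyte markers. The cause was not tested.

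With the replicate number as a block, 1 gene of the list was called higher, 2 lower and 0 members, and 420 rows were called in all against 994 without it. Same-numbered libraries had deviations with correlations of -0.09 to 0.07, and 2 of 4 were best with their own number. With 4 such correlations, what same-numbered libraries share beyond the number cannot be decided. For the Cpt1b share the exact sign-flip permutation within numbers gave p = 0.125, the smallest that 4 pairs allow. The filter at a mean of 5 TPM gives no value for Ppara. TPM keeps no depth, so what depth limits is not known.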
